A study of Mus musculus with 23 samples.

Results

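The 32 genes described here carry pyruvate into mitochondria, turn it into acetyl-CoA and run the tricarboxylic acid cycle, with the enzymes of the malate-aspartate shuttle. They were taken from a fixed list of mouse gene symbols and matched to the Ensembl identifiers of the count tables. All 32 matched 1 identifier each, of 55416 gene rows in all, and all 32 passed the filter on low counts. RNA-seq libraries, 1 per mouse, were made from scraped proximal small intestine. The mice were of the strain C57BL/6JRccHsd and are labelled female. The galactose group (GAL42, 12 mice) ate a diet with 16% of its energy as galactose and 16% as glucose. The glucose group (GLU42, 11 mice) ate an otherwise identical diet with 32% of its energy as glucose, so both diets held that sugar. Feeding began at 21 days of age and lasted 3 weeks, and tissue was taken at 42 days of age in both groups. The comparison asks how transcript levels in the proximal intestine of weaned mice differ when galactose takes the place of some of the glucose.

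Pyruvate made by glycolysis enters the mitochondrial matrix through a carrier and is oxidised to acetyl-CoA by the pyruvate dehydrogenase complex. Kinases phosphorylate that complex and switch it off, and phosphatases switch it on again. Acetyl-CoA joins oxaloacetate to form citrate, and the cycle returns to oxaloacetate while it feeds electrons to the respiratory chain. Enterocytes oxidise glutamine as well as sugars, and glutamine carbon enters the same cycle as 2-oxoglutarate.

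Libraries held between 15382583 and 17174721 counts in genes. Mean counts per library of the 32 genes ran between 51.4 for Pdp1 and 31480 for Mdh2, so counting error was small for nearly all of them. Enterocyte markers (12 genes, such as Vil1 and Fabp1) summed to between 67710 and 91160 CPM (counts scaled to library size) in galactose libraries and between 62930 and 95820 CPM in glucose libraries. The 2 distal markers, Fabp6 and Slc10a2, summed to at most 1.45 CPM in galactose libraries and 1.63 CPM in glucose libraries. A scraping holds several cell types, and fewer cells of a type and less RNA per cell cannot be told apart in it. Galactose replicate 12, labelled female, had 4 Xist counts and 225 counts of 4 Y-linked genes, so its label and its counts disagree. In galactose replicate 2, 5 of the 6 pancreatic acinar markers had counts, 6245 in all or 410.6 CPM, against at most 39 counts in any other galactose library and 19 counts in any glucose library. The remaining marker, Amy2a5, was at 0 in every library.

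On galactose, 25 of the 32 genes had a higher fitted level and 7 a lower one, and no gene passed the test after adjustment. The shift was small: the median log2 difference (galactose minus glucose) was 0.12, against -0.0017 over all 13405 genes tested. The largest positive differences were those of Pdhb, a pyruvate dehydrogenase subunit (0.27), and of Sdhd and Sdhb, subunits of succinate dehydrogenase (0.26 and 0.24). The largest negative ones were those of Pdpr, a regulator of the dehydrogenase phosphatase (-0.22), and Pdk3, a dehydrogenase kinase (-0.21). Citrate synthase (Cs) stood at -0.0095.

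edgeR's quasi-likelihood test with Benjamini-Hochberg adjustment over all genes called 0 of the 32 genes, as it called 0% of all genes tested, and the smallest adjusted p was 0.135. At an unadjusted p under 0.05, 12 of the 32 genes were higher on galactose, where 8.63% of all genes were, and 1 was lower, where 5.72% were. A positive difference was found for 78.1% of the 32 genes and for 49.5% of all genes tested. Without galactose replicate 12 the higher count was 11 and the median log2 difference 0.12, and without galactose replicate 2 they were 11 and 0.11. The share of all genes past the unadjusted threshold was not computed for these 2 fits. No gene of the 32, and none of all genes tested, had groups that did not overlap.

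Other tests on the same counts gave calls. DESeq2 called Pdhb and Sdhb higher, where it called 0.47% of all genes higher and 0.172% lower. limma-voom with quality weights called Pdhb, Sdhb, Sdhd, Fh1 and Suclg1 higher, where it called 1.06% of all genes higher and 0.186% lower. Leaving out galactose replicate 7, edgeR called Pdhb, Sdhb, Sdhd and Fh1 higher, where 1.31% of all genes were called higher and 0.33% lower. None of these 3 settings called a member of the list lower.

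The relation of counts to transcript length differed between libraries, and is given here because it touches every value below. For each library, log2 CPM minus the average library was regressed on log2 transcript length over genes. A negative value of this length slope means relatively more counts in short transcripts. It was -0.0289 ± 0.0553 in galactose libraries and 0.0315 ± 0.0450 in glucose libraries (SD, n = 12 and 11). The longest transcripts of the 32 genes had a median length of 2562 bases, against 3228 bases for all genes tested. When genes were ranked by length and split into 10 bins, 24 of the 32 genes lay above the median log2 difference of their own bin. With the length slope held as a covariate, the median log2 difference of the 32 genes was 0.054, against 0.0043 for all genes. In that fit, 29 of the 32 were positive, and the share of all genes positive was not computed, so this count has no background. Pdk2, Pdp1, Pdpr, Cs and Ogdh turned positive, each with a log2 difference smaller than its standard error, and Idh2 turned negative. At an unadjusted p under 0.05 in the same fit, Pdhb and Sdhb were higher, where 3.80% of all genes were. Pdk3 was lower, where 2.80% of all genes were. The part of length in the diet difference was not tested further.

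**Figure D1:**
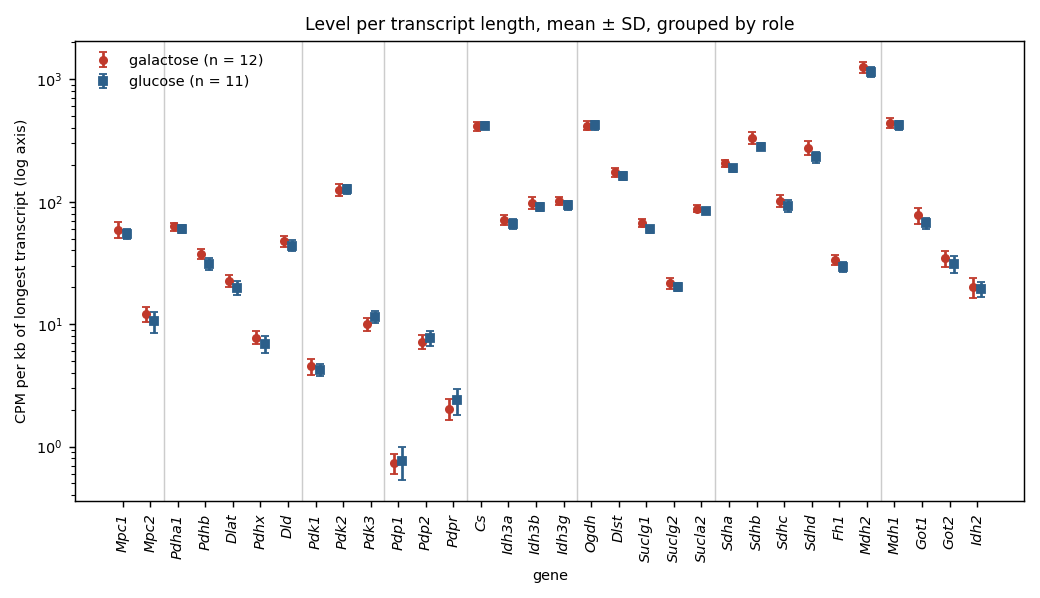
Mean CPM per kilobase of the longest transcript (log axis) of each of the 32 genes, in galactose libraries (red circles) and glucose libraries (blue squares), with SD bars and genes ordered by role. Levels span from 0.737 for Pdp1 to 1257 for Mdh2 on galactose, and the 2 diets lie close together for every gene beside that span.

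Levels between genes were compared as CPM per kilobase of the longest transcript. Mdh2, the mitochondrial malate dehydrogenase, was the highest, at 1257 ± 136 on galactose and 1146 ± 108 on glucose. Next came Mdh1 (438 ± 40.5 and 419.9 ± 37.7), Ogdh (418 ± 34.7 and 423 ± 37.02) and Cs (415 ± 36.8 and 418 ± 27.6), whose ranges of 1 SD overlap on both diets. These are the cytosolic malate dehydrogenase, the first subunit of 2-oxoglutarate dehydrogenase, and citrate synthase. The pyruvate dehydrogenase subunits were far lower, between 7.78 for Pdhx and 62.8 for Pdha1 on galactose and between 6.88 for Pdhx and 59.9 for Pdha1 on glucose. The phosphatase Pdp1 was the lowest, at 0.737 ± 0.140 on galactose and 0.767 ± 0.233 on glucose, and Pdpr, the regulator of the phosphatase, was next, at 2.05 and 2.38. The 32 genes varied less between mice of a diet than genes in general. Their median coefficient of variation was 10.8% on galactose and 9.72% on glucose, against 16.6% and 16.0% over all genes tested. Genes were not matched by count level here, so the part of count level in that contrast was not tested.

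**Figure D2:**
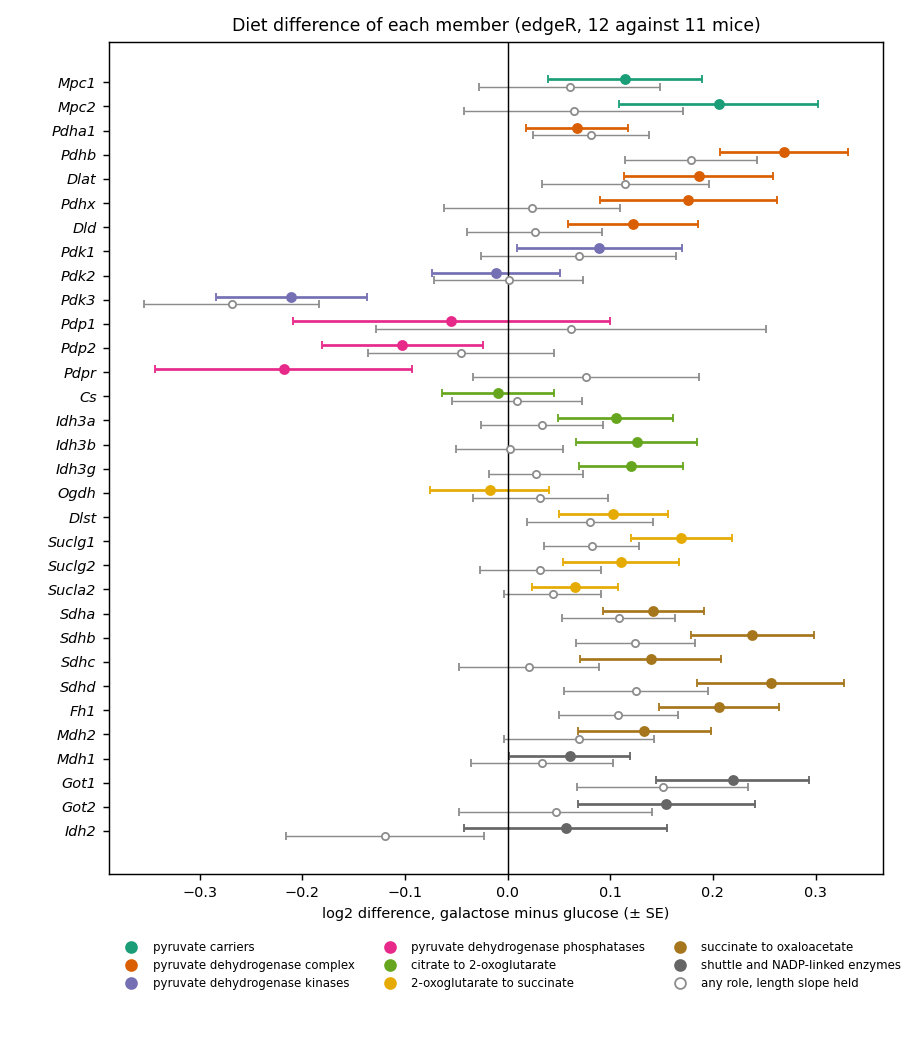
Log2 difference (galactose minus glucose, ± SE) of each of the 32 genes by edgeR, coloured by role, with the value from the fit that holds the length slope as open grey circles. Most coloured points lie right of 0, and those of the kinases and phosphatases, Cs and Ogdh lie near or left of it, with the exception of Pdk1; with the length slope held, Pdk2, Pdp1, Pdpr, Cs, Ogdh and Idh2 change sign.

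The mitochondrial pyruvate carrier is a pair of proteins, Mpc1 and Mpc2. Mpc2 had 48.7 ± 6.82 CPM on galactose against 42.3 ± 7.94 CPM on glucose (SD), which gave a log2 difference of 0.21 ± 0.10 (SE) with an unadjusted p of 0.0429 by edgeR. Its lowest, median and highest libraries were at 31.8, 50.5 and 57.5 CPM on galactose and at 29.7, 44.6 and 52.2 CPM on glucose, so the groups overlapped almost throughout. Mpc1 had 57.0 ± 8.34 CPM on galactose against 52.6 ± 5.33 CPM on glucose, and thus a log2 difference of 0.11 ± 0.07. Both carriers, with the length slope held, stood at 0.06. A processed pseudogene, Mpc1-ps, is identical to Mpc1 over 261 bases and held 18.5% as many counts, so the split of reads between the pair is uncertain.

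The pyruvate dehydrogenase complex joins the E1 subunits Pdha1 and Pdhb, the E2 acetyltransferase Dlat, the E3-binding protein Pdhx and the E3 dehydrogenase Dld. All 5 had positive differences, and Pdhb and Dlat had unadjusted p-values under 0.05 by edgeR. Pdhb had the smallest p of the 32 genes. Its lowest, median and highest libraries stood at 76.0, 88.4 and 106 CPM on galactose, and at 62.8, 74.1 and 88.5 CPM on glucose. The groups overlapped, but 12 of 12 galactose libraries lay above the glucose median and 1 glucose library lay above the galactose median. Means were 89.4 ± 8.49 CPM on galactose against 74.2 ± 8.20 CPM on glucose (SD), which gave a log2 difference of 0.27 ± 0.06 (SE; unadjusted p = 0.000193, adjusted p = 0.135 by edgeR). It was 0.18 ± 0.06 with the length slope held (unadjusted p = 0.00996).

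The other subunits differed less. Dlat had 91.5 ± 10.96 CPM on galactose against 80.4 ± 10.2 CPM on glucose, and thus a log2 difference of 0.19 ± 0.07 (unadjusted p = 0.0164 by edgeR), or 0.11 ± 0.08 with the length slope held. Pdha1, the catalytic partner of Pdhb in the same heterotetramer, had 178.9 ± 13.1 CPM on galactose against 170.7 ± 12.2 CPM on glucose, and thus a log2 difference of 0.07 ± 0.05. Its 95% interval ran between -0.036 and 0.17, and whether it differs from that of Pdhb was not tested. Pdhx and Dld stood at 0.18 ± 0.09 and 0.12 ± 0.06, and at 0.024 and 0.026 with the length slope held. Dld also serves the 2-oxoglutarate and branched-chain dehydrogenases.

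Promoter sequence is shown for 3 genes, those of Pdhb, Fh1 and Pdk3, because these are a gene of pyruvate entry and one of the cycle with positive differences, beside the gene with the smallest p among negative ones. The stretches lie within 250 bases upstream of the RefSeq start, hold no annotated exon and are from the minus strand of GRCm38.p6, at chr14:8173026-8173242 (Pdhb), chr1:175625636-175625885 (Fh1) and chrX:93832202-93832400 (Pdk3). Capitals mark CCAAT, the box that the factor NF-Y binds, in either orientation (ATTGG on the opposite strand).
Pdhb: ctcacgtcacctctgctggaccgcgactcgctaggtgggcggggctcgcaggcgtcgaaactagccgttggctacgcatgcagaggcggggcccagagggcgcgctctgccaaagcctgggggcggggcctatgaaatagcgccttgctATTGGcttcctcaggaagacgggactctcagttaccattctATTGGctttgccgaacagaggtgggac
Fh1: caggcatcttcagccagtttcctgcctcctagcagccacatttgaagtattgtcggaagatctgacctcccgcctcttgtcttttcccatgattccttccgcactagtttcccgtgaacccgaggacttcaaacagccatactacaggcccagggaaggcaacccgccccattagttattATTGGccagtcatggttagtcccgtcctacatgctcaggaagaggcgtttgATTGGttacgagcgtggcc
Pdk3: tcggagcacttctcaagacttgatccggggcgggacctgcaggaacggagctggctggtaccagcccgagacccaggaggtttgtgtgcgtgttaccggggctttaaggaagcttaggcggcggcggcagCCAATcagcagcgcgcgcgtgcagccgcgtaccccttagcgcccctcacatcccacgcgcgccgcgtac
Pdhb and Fh1 each hold 2 CCAAT boxes and Pdk3 holds 1, so genes with positive and negative differences share it.

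Promoter windows of 250 bases were found for 29 of the 32 genes. CCAAT lay on either strand in 17 of the 29 (58.6%), among them Cs, Mdh1 and Ogdh, against 40.2% of the genes tested that had a window and 37.5% of all genes with one. GCGCANGCG, the site of nuclear respiratory factor 1, lay in 4 (13.8%, against 12.1% of tested genes), namely Ogdh, Sdha, Sdhd and Sucla2. CCGGAAG, bound by ETS factors such as GABP, lay in 3 (10.3%, against 15.4%), and the E-box CACGTG in 4 (13.8%, against 9.78%). AAGATGGCG, bound by YY1, lay in 1 (3.45%, against 1.42%). TNAAGGTCA, the extended half-site of estrogen-related receptors, lay in 0 of the 29, where 0.882% of tested genes held it. The CCAAT motif was added after the sequences had been seen, and a match is only a description of the letters.

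Pdk1, Pdk2 and Pdk3 are kinases that phosphorylate and inactivate pyruvate dehydrogenase. Pdk2 was the highest of them per kilobase, at 126 ± 13.3 CPM per kilobase on galactose and 127 ± 11.3 on glucose, and Pdk3 lay at 9.97 on galactose and 11.5 on glucose. The lowest, median and highest libraries of Pdk3 were at 15.4, 21.8 and 24.3 CPM on galactose and at 20.6, 24.2 and 29.1 CPM on glucose. The groups overlapped, with 1 of 12 galactose libraries above the glucose median and galactose replicates 1 and 2 lowest. Pdk3 had 21.1 ± 2.65 CPM on galactose against 24.4 ± 2.69 CPM on glucose (SD), which gave a log2 difference of -0.21 ± 0.07 (SE; unadjusted p = 0.00827, adjusted p = 0.205 by edgeR). With the length slope held, its log2 difference was -0.27 ± 0.08 (unadjusted p = 0.00394). Pdk1, which is known as a target of hypoxia signalling, stood at 0.09 ± 0.08. Pdk2 stood at -0.011 ± 0.062, with a 95% interval between -0.14 and 0.12.

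The phosphatases that reactivate the complex are Pdp1 and Pdp2, and Pdpr is the regulatory subunit of the phosphatase. All 3 had negative log2 differences, at -0.055 ± 0.154 for Pdp1, -0.10 ± 0.08 for Pdp2 and -0.22 ± 0.13 for Pdpr, none with an unadjusted p under 0.05 by edgeR. Pdp1 had few counts, with a mean of 51.4 per library, and Pdpr had 177.8. Both had wide spreads. Pdpr had a coefficient of variation of 19.1% on galactose and 23.9% on glucose, and its lowest, median and highest libraries were at 6.60, 10.01 and 13.5 CPM on galactose and 7.58, 11.7 and 16.1 CPM on glucose. With the length slope held, Pdp1 and Pdpr turned positive, at 0.061 and 0.077, while Pdp2 stayed negative at -0.046. The longest transcripts of Pdp1, Pdpr and Pdp2 have 4201, 4938 and 5692 bases, and the part of length in these changes was not tested. Leaving out galactose replicate 2, glucose replicate 6 or glucose replicate 8, each alone, brought the count of genes lower at an unadjusted p under 0.05 to 2, with Pdpr as the second beside Pdk3. The share of all genes lower in those fits was not computed. Pdpr shares 169 exon bases with an antisense gene, and the strand setting of the counting is not given in the sources used here.

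**Figure D3:**
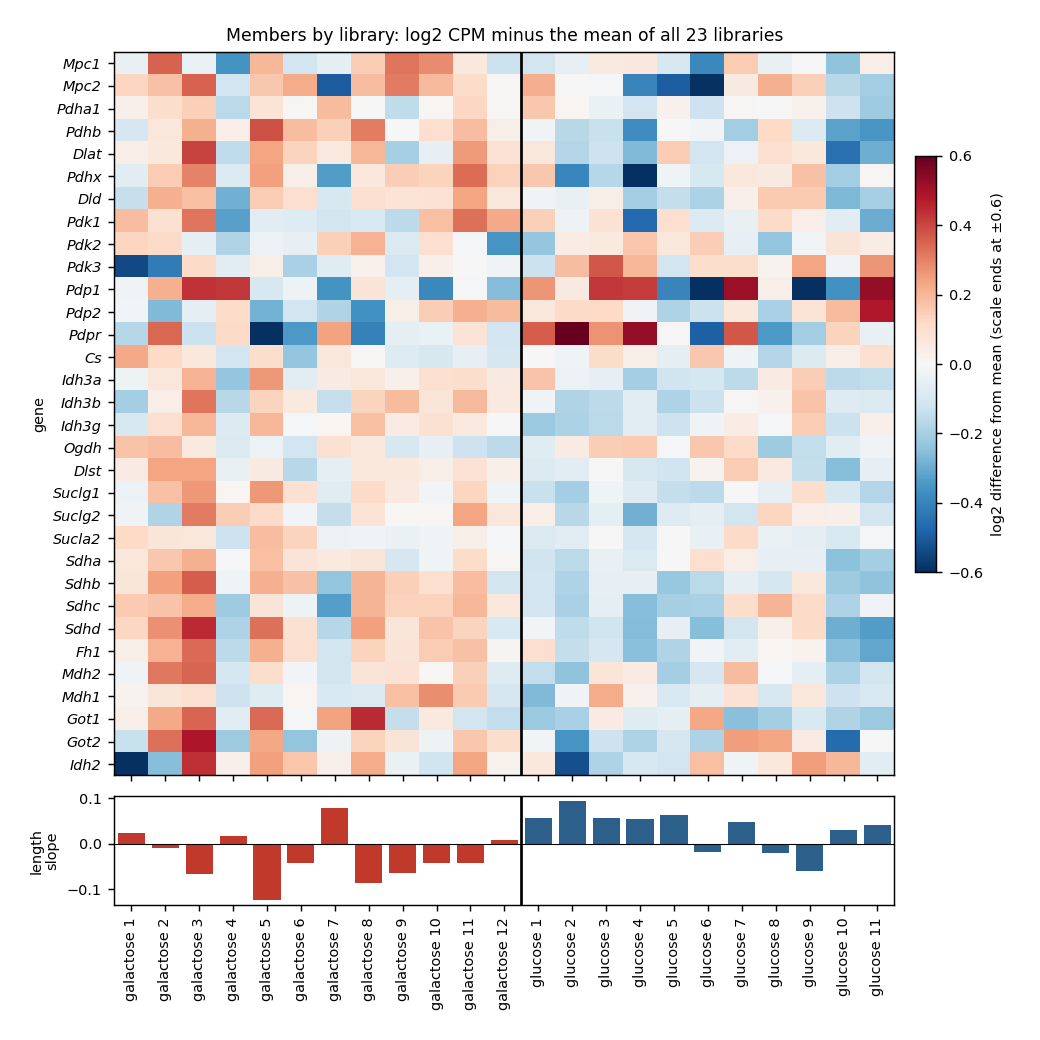
Log2 CPM of each of the 32 genes (rows) in each library (columns, galactose left of the line and glucose right of it) minus the gene's mean over all 23 libraries, with the length slope of each library as bars beneath. Galactose replicates 2, 3, 5 and 8 are mostly red and glucose replicates 2, 10 and 11 mostly blue, whereas galactose replicate 4 looks like a glucose library in most rows.

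The number of the 32 genes above the glucose median ran from 10 in galactose replicate 4 and 16 in galactose replicate 7 to 28 in galactose replicate 2 and 29 in galactose replicate 3. Among glucose libraries, the number above the galactose median ran from 6 in replicates 2, 5 and 10 to 13 in replicate 9. Mice of 1 diet thus differed widely in how many of the genes stood high. Galactose replicate 7 had the highest length slope of its group (0.0795) and glucose replicate 9 the lowest of its own (-0.0600), and these were the second lowest galactose library and the highest glucose library by number of genes. The part of the slope in these counts was not tested.

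Cs condenses acetyl-CoA with oxaloacetate, and Idh3a, Idh3b and Idh3g form the NAD-linked isocitrate dehydrogenase. Cs had 1246 ± 110 CPM on galactose against 1254 ± 82.8 CPM on glucose. Its lowest, median and highest libraries lay at 1063, 1228 and 1461 CPM on galactose and at 1103, 1247 and 1393 CPM on glucose. Galactose libraries spanned the whole glucose range, and the log2 difference was -0.0095 ± 0.0548 with a 95% interval between -0.12 and 0.10. The isocitrate dehydrogenase subunits had similar positive differences, at 0.11 ± 0.06 for Idh3a, 0.13 ± 0.06 for Idh3b and 0.12 ± 0.05 for Idh3g. Unadjusted p-values by edgeR were 0.0715, 0.0419 and 0.0248 in that order. With the length slope held they stood at 0.033, 0.0019 and 0.028.

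Ogdh and Dlst are the E1 and E2 subunits of 2-oxoglutarate dehydrogenase, and Suclg1 is the subunit shared by both forms of succinyl-CoA ligase. Ogdh had 1724 ± 143 CPM on galactose against 1745 ± 153 CPM on glucose, and thus a log2 difference of -0.017 ± 0.058 with a 95% interval between -0.14 and 0.10. Dlst had 560.0 ± 43.8 CPM on galactose against 521 ± 39.6 CPM on glucose, and thus a log2 difference of 0.10 ± 0.05 (unadjusted p = 0.0619 by edgeR). Suclg1 stood out among the 5 genes of this stretch. Its lowest, median and highest libraries were at 166, 184.0 and 209.5 CPM on galactose and at 152, 163 and 188.0 CPM on glucose. The groups overlapped, with 12 of 12 galactose libraries above the glucose median and 1 glucose library above the galactose median. The log2 difference of Suclg1 was 0.17 ± 0.05 (unadjusted p = 0.00190, adjusted p = 0.148 by edgeR), and 0.08 ± 0.05 with the length slope held. The partner subunits, Sucla2 of the ADP-forming ligase and Suclg2 of the GDP-forming one, stood at 0.07 ± 0.04 and 0.11 ± 0.06.

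The stretch from succinate to oxaloacetate held 5 of the 12 genes that were higher at an unadjusted p under 0.05. All 6 of its genes were positive, and the median log2 difference was 0.17, or 0.11 with the length slope held. Succinate dehydrogenase is also complex II of the respiratory chain, with a catalytic flavoprotein (Sdha), an iron-sulfur protein (Sdhb) and 2 membrane anchors (Sdhc and Sdhd). Sdhb had libraries at 319.9, 421 and 486 CPM (lowest, median and highest) on galactose and at 319, 349 and 395.5 CPM on glucose. The groups overlapped at the low end, where galactose replicates 4, 7 and 12 lay, and no glucose library reached the galactose median. Means of Sdhb were 410.1 ± 45.6 CPM on galactose against 348 ± 23.3 CPM on glucose (SD), which gave a log2 difference of 0.24 ± 0.06 (SE; unadjusted p = 0.000474, adjusted p = 0.138 by edgeR). It was 0.12 ± 0.06 with the slope held (unadjusted p = 0.0418).

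Sdhd had libraries at 274, 340.0 and 424 CPM (lowest, median and highest) on galactose and at 247, 286 and 337 CPM on glucose. Galactose replicates 4, 7 and 12 were the lowest of their group, and no glucose library reached the galactose median. The log2 difference of Sdhd was 0.26 ± 0.07 (unadjusted p = 0.00129 by edgeR), and 0.13 ± 0.07 with the length slope held. Sdha had 599 ± 37.7 CPM on galactose against 543 ± 38.9 CPM on glucose, and thus a log2 difference of 0.14 ± 0.05 (unadjusted p = 0.00761 by edgeR), or 0.11 ± 0.05 with the length slope held. Sdhc had 323 ± 36.2 CPM on galactose against 293 ± 32.5 CPM on glucose, and thus a log2 difference of 0.14 ± 0.07, or 0.021 with the length slope held.

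Fh1, fumarase, hydrates fumarate to malate. Its libraries were at 74.2, 89.5 and 105 CPM (lowest, median and highest) on galactose and at 66.7, 77.2 and 88.7 CPM on glucose. The groups overlapped, with galactose replicates 4 and 7 below the glucose median, and no glucose library reached the galactose median. The log2 difference of Fh1 was 0.21 ± 0.06 (unadjusted p = 0.00151, adjusted p = 0.139 by edgeR), and 0.11 ± 0.06 with the length slope held. Mdh2 closes the cycle. It had 2019 ± 219 CPM on galactose against 1841 ± 173 CPM on glucose, and thus a log2 difference of 0.13 ± 0.06 (unadjusted p = 0.0483 by edgeR), or 0.070 ± 0.073 with the length slope held.

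**Figure D4:**
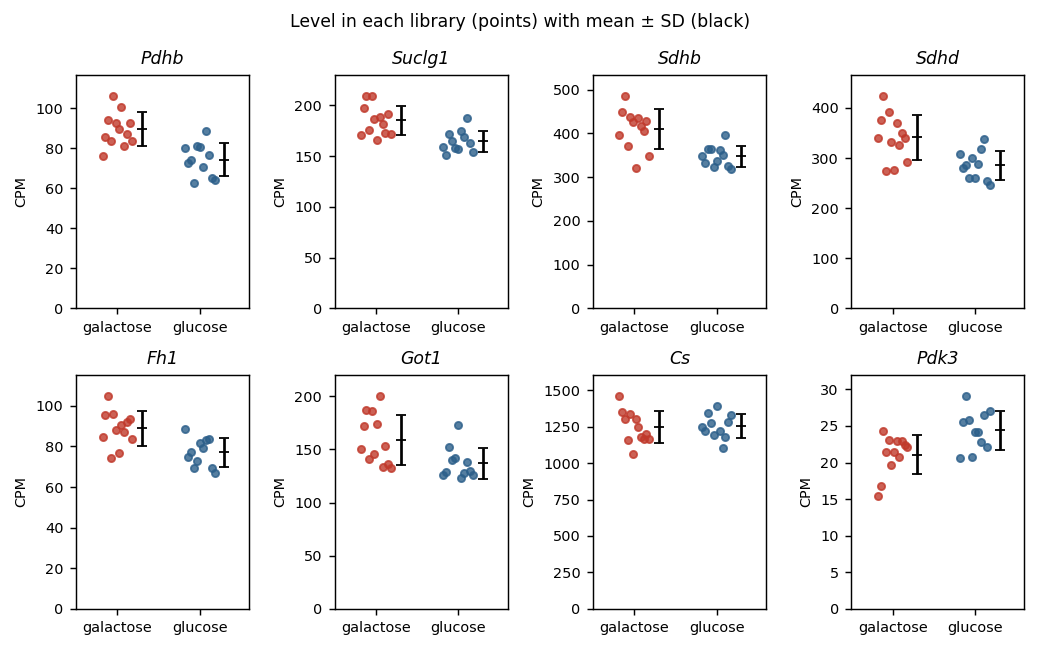
CPM of 8 of the 32 genes in each library (galactose in red, left; glucose in blue, right) with mean ± SD in black and axes from 0. Pdhb, Suclg1, Sdhb, Sdhd, Fh1 and Got1 lie higher on galactose with overlapping groups, Cs shows no visible shift, and Pdk3 lies lower on galactose.

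The malate-aspartate shuttle moves reducing equivalents into mitochondria through cytosolic and mitochondrial pairs of malate dehydrogenase and aspartate aminotransferase. Got1, the cytosolic aminotransferase, had libraries at 133, 152 and 200.2 CPM (lowest, median and highest) on galactose and at 124, 130 and 173 CPM on glucose. The groups overlapped widely, yet 12 of 12 galactose libraries lay above the glucose median. The log2 difference of Got1 was 0.22 ± 0.07 (unadjusted p = 0.00662, adjusted p = 0.203 by edgeR), and 0.15 ± 0.08 with the length slope held. Got2, its mitochondrial counterpart, had 87.7 ± 13.4 CPM on galactose against 78.8 ± 11.97 CPM on glucose, and thus a log2 difference of 0.15 ± 0.09. Mdh1 had 929 ± 85.8 CPM on galactose against 891 ± 80.1 CPM on glucose, and thus a log2 difference of 0.06 ± 0.06. Idh2, the NADP-linked mitochondrial isocitrate dehydrogenase, stood at 0.06 ± 0.10 and at -0.12 ± 0.10 with the length slope held.

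Ratios of counts within a library were compared for 9 pairs of isoforms or compartment counterparts, since such a ratio does not depend on how libraries are scaled. None passed a two-sided permutation test with 100000 resamples after Benjamini-Hochberg adjustment over the 9 pairs. Pdk3 relative to Pdk2 had a log2 ratio of -3.75 ± 0.28 on galactose and -3.54 ± 0.16 on glucose (SD). The difference was -0.20 ± 0.10 (SE; permutation p = 0.0494, adjusted p = 0.445), with 2 of 12 galactose libraries above the glucose median. The other 8 pairs had adjusted permutation p-values of at least 0.668. Their differences ran between -0.11 for Mpc1 to Mpc2 and 0.10 for Pdk1 to Pdk2.

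Several intervals bound how far a pair could have shifted. For Sucla2 to Suclg2, which sets the balance of ADP-forming and GDP-forming ligase transcripts, the log2 difference was -0.044 with a 95% interval between -0.18 and 0.09. Per kilobase, the median ratio of this pair was 4.02 on galactose and 4.30 on glucose, so the ADP-forming subunit was the more abundant transcript on both diets. For Mdh1 to Mdh2 the log2 difference was -0.071, with an interval between -0.19 and 0.04. For Pdhx to Dlat it was -0.0037, with an interval between -0.17 and 0.16. With each library's length slope taken off, an alternative chosen after seeing the data, the smallest adjusted permutation p was 0.318, for Pdk3 to Pdk2 and for Mpc1 to Mpc2.

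**Figure D5:**
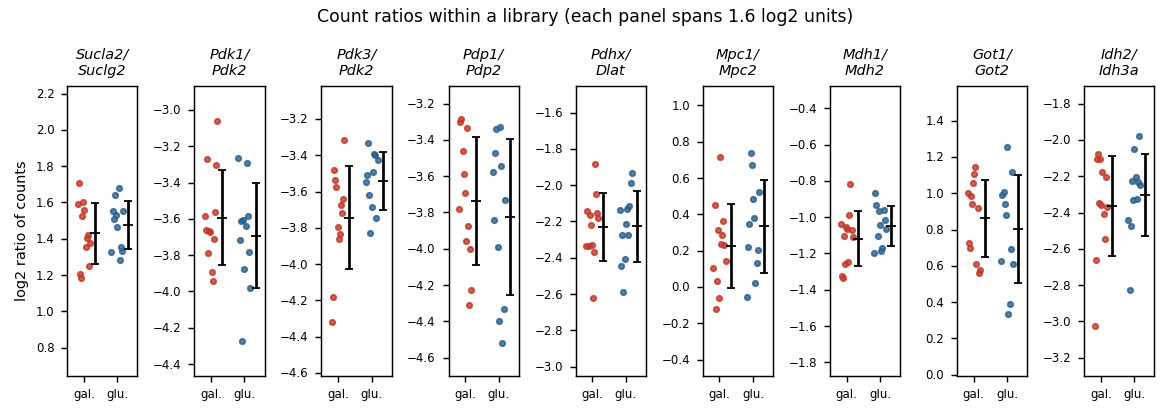
Log2 ratio of counts within each library for 9 pairs of genes (galactose in red, left; glucose in blue, right) with mean ± SD in black, each panel spanning the same number of log2 units. The groups overlap in every panel, and Pdk3 to Pdk2 shows the largest difference, with the 2 lowest galactose libraries near -4.2 and -4.3.

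Genes beside the cycle were described from lists of neighbours. As a background for these lists and for the markers below, 49.5% of all genes tested had a positive difference. At an unadjusted p under 0.05, 8.63% of all genes were higher on galactose and 5.72% lower. Of 10 genes that supply cofactors or assemble the complexes, 9 had positive log2 differences and 2 had an unadjusted p under 0.05, with a median of 0.11, or -0.011 with the length slope held. These 2 were the succinate dehydrogenase assembly factors Sdhaf1 (0.28 ± 0.12) and Sdhaf3 (0.30 ± 0.14). Mrps36, a subunit that recruits Dld to the 2-oxoglutarate dehydrogenase complex, stood at 0.13 ± 0.07.

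Carriers and enzymes of other routes into and out of the cycle had no common direction. Of 17 tested, 7 were positive and 10 negative, with a median log2 difference of -0.035. Idh1, the cytosolic NADP-linked isocitrate dehydrogenase, had 238 ± 30.4 CPM on galactose against 272 ± 32.1 CPM on glucose, and thus a log2 difference of -0.19 ± 0.07 (unadjusted p = 0.0138, adjusted p = 0.233 by edgeR). Slc25a1, the citrate carrier, stood at 0.12 ± 0.06, Aco1, the cytosolic aconitase, at -0.11 ± 0.06 and Pck1, the cytosolic phosphoenolpyruvate carboxykinase, at -0.37 ± 0.22. Of 7 tested genes of related dehydrogenases, only Bckdha, the branched-chain E1 subunit, had an unadjusted p under 0.05, at 0.18 ± 0.06, or 0.064 ± 0.062 with the length slope held. The median of these 7 was 0.070, and -0.029 with the length slope held. Gcsh, Bckdk and Dbt stood at 0.17 ± 0.09, 0.07 ± 0.06 and -0.12 ± 0.09.

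Among 15 regulators of mitochondrial genes, 1 was higher and 2 were lower at an unadjusted p under 0.05. Esrra, the estrogen-related receptor alpha, had libraries at 239, 273 and 309 CPM (lowest, median and highest) on galactose and at 214, 235 and 275 CPM on glucose. All 12 galactose libraries lay above the glucose median and 1 glucose library lay above the galactose median. The log2 difference of Esrra was 0.20 ± 0.05 (unadjusted p = 0.000653, adjusted p = 0.138 by edgeR), and 0.17 ± 0.06 with the length slope held. Gabpa, an ETS factor, stood at -0.14 ± 0.06 and Sirt1, a deacetylase, at -0.15 ± 0.07, and both moved toward 0 with the length slope held (-0.022 and -0.045). Gabpb1 stood at 0.14 ± 0.08, and the coactivator Ppargc1a at -0.0063 ± 0.0630.

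The direction of the cycle genes was also that of mitochondrial genes of other functions. Of 18 such genes, all 18 had positive log2 differences, where 49.5% of all genes tested did. At an unadjusted p under 0.05, 11 were higher, where 8.63% of all genes were. The median of the 18 was 0.14, and 0.034 with the length slope held, beside 0.12 and 0.054 for the 32 genes. Clpp, a matrix protease, stood at 0.29 ± 0.08, Phb, a prohibitin, at 0.27 ± 0.09, Timm23, a protein importer, at 0.22 ± 0.08 and Slc25a3, the phosphate carrier, at 0.13 ± 0.05. With the length slope held they stood at 0.11, 0.042, 0.081 and 0.065 in that order. No difference between these genes and the cycle genes was tested.

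Markers of other cell types are given as whole lists, and no marker passed the edgeR test after adjustment. All 6 T cell markers had positive log2 differences, 4 of them with an unadjusted p under 0.05 and a median of 0.48, and summed to between 42.4 and 97.5 CPM in galactose libraries and between 19.1 and 86.3 CPM in glucose libraries. The 3 tested of 5 B and plasma cell markers were positive, 2 with an unadjusted p under 0.05. Their median log2 difference was 0.95, or 0.74 with the length slope held. The 5 summed to between 50.3 and 234 CPM on galactose and between 51.7 and 151 CPM on glucose. The median of these sums was 94.7 CPM on galactose and 98.4 CPM on glucose, so the sum was not higher in the typical galactose library. Such a sum gives most weight to the most abundant markers and includes those not tested, so it does not cancel the differences of single markers. All 5 smooth muscle and all 5 fibroblast markers were negative, with medians of -0.21 each and none with an unadjusted p under 0.05. Of 6 goblet and Paneth cell markers, 5 were negative, 1 with an unadjusted p under 0.05, and the median was -0.24, or -0.35 with the length slope held. They summed to between 5766 and 8961 CPM on galactose and between 6192 and 9893 CPM on glucose. Of 12 enterocyte markers, 7 were positive and 5 negative, 2 in each direction with an unadjusted p under 0.05, and the median was 0.013. No tested marker of proximal position, distal position, adipocytes or blood had an unadjusted p under 0.05. The part of cell composition in the differences of the 32 genes was not tested.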

How the data were processed

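Raw read counts per gene were deposited as 1 table per mouse. Per the submitters' processing notes, STAR and HTSeq were used on the genome build GRCm39; for versions, annotation release and strand setting, the sources used here give no value. The 5 rows that name no gene held 13.5% of reads and were left out. Transcript lengths came by identifier from GENCODE M21 on GRCm38, so no coordinates of counted genes are given, and promoters are RefSeq's on GRCm38.p6. Counts were fitted with edgeR 4.0.16 in R 4.3.3 (filterByExpr, TMM, quasi-likelihood F test, diet as the only term, 23 libraries), with Benjamini-Hochberg adjustment over 13405 genes and a threshold of 0.05. CPM values use TMM-scaled library sizes. Alternatives were DESeq2 1.42.0, limma-voom 3.58.1 with quality weights, other scalings, no filter, the length slope as covariate and each library left out. The test was tried on simulated data, with changes larger than any difference of the genes described here. How well it finds differences as small as theirs was not tested. The 121 pairs of libraries within a diet differed by more than sampling noise (chi-square per degree of freedom 12.9 to 51.3). Replicate numbers follow deposit order. The genes, lists, motifs and ratios were chosen with earlier results of these data known. Of each neighbour list, the 4 tested genes of smallest p are named; Ppargc1a was added after its value was seen. Some genes of the pathway and of these lists are not reported here.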

Additional observations from a re-analysis of the deposited data

How the results depend on the processing

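Of the 32 genes, 26 kept the sign of their log2 difference in all 29 other settings. The count called higher after adjustment, 0 by edgeR, was 2 with DESeq2 and 5 with limma-voom with quality weights. Leaving out 1 library at a time, it ran between 0 and 4, and only the fit without galactose replicate 7 gave calls. No setting called a gene of the list lower. The count higher at an unadjusted p under 0.05, 12 by edgeR, was 2 with the length slope as covariate and ran between 8 and 17 with 1 library left out. The count lower, 1 by edgeR, was 2 with quality weights and ran between 1 and 2 with 1 library left out. With quality weights or 1 library left out, the share of all genes past that threshold was not computed, so these counts have no background. The median log2 difference ran between 0.098 and 0.13 with 1 library left out. With the length slope as covariate the sign turned for Pdk2 (0.00097), Pdp1 (0.061), Pdpr (0.077), Cs (0.0093), Ogdh (0.032) and Idh2 (-0.12). With 1 library left out, Cs ran between -0.032 and 0.0096, Pdk2 between -0.038 and 0.013 and the log2 ratio of Pdhx to Dlat between -0.040 and 0.032. The cause of these changes was not tested. No paired analysis was possible because replicate numbers were given in accession order and pair no mice. Low counts limit Pdp1, with a mean of 51.4 counts per library.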
